A study of Mus musculus with 9 samples.

Results

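The 10 genes described here belong to the circadian clock: Nr1d1, Nr1d2, Dbp, Tef, Ciart, Per2, Per3, Arntl, Npas2 and Clock. They were taken by symbol from the 17179 gene symbols listed in 9 RNA sequencing libraries of mouse aorta. All 10 were listed in each of the 9 libraries and had a mean of at least 1 FPKM (fragments scaled to transcript length and library size), the minimum for a test. Within the set, 7 genes peak in the same part of the day as Dbp (Dbp-phase genes) and 3 peak with Arntl (Arntl-phase genes). These names are background and were not read from these libraries. The set was chosen by its FPKM in these same libraries, so the members' values below are descriptions, and no test is given for them. Their standard errors (SE) below come from the limma fit of all tested genes, which pools the spread between replicates over all groups with replicates.

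The mice were C57BL/6J, and the study asked how β-aminopropionitrile (BAPN), a lysyl oxidase inhibitor that weakens collagen and elastin and is used to induce aortic dissection, acts on the aorta alone and with other agents. Per the labels, 2 normal libraries came from mice on distilled water and 2 BAPN libraries from mice on BAPN at 1 g/kg/day. A further 2 libraries came from mice on BAPN given the AP-1 activator TPA by intraperitoneal injection at 50 ng/g/day from day 1. Another 2 came from mice on BAPN gavaged with T-5224, an AP-1 inhibitor, at 5 mg/kg/day, and 1 came from a mouse or mice on BAPN gavaged with coenzyme Q10 (coQ10, written co110 in its label) at 10 mg/kg/day. AP-1 is the transcription factor formed by FOS and JUN proteins. Gavage ran from day 7 or 14, all mice were killed on day 28, and the 2 T-5224 libraries carry 2 weeks (replicate 1) and 3 weeks (replicate 2) in their titles. No hour of killing, light schedule, age, sex or pooling of animals is given in the sources used here. Treatment and time of day therefore cannot be told apart in any comparison of these genes, and p-values measure only the spread between these samples.

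Mammalian cells keep daily time with a loop of transcription factors. CLOCK, or its relative NPAS2, pairs with BMAL1, the product of Arntl, and the pair binds E-boxes in the genes for PER, CRY, REV-ERB, DBP and CIART. PER and CRY proteins then block the pair, and the REV-ERB proteins, encoded by Nr1d1 and Nr1d2, repress Arntl, so that Dbp and Arntl mRNA peak at opposite times of day. DBP and TEF are basic leucine zipper activators that bind D-boxes in output genes, PER2 and PER3 belong to the period family of repressors, and CIART also represses the BMAL1 complex. Smooth muscle of the aortic wall runs this clock, and in mice it takes part in the daily rhythm of vascular tone and blood pressure.

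Promoters bear on this loop, and those of 4 members in which a search found an E-box, a D-box or an element for ROR and REV-ERB proteins are shown. The E-box was searched as CACGTG, its variant as CACGTT, the D-box as TTATGTAA, TTACGTAA or TTACATAA, and the element for ROR and REV-ERB proteins (ROR element) as TAGGTCA or TGGGTCA, on both strands and without regard to overlap. Windows run from 250 bases before to 50 bases after the start, are from RefSeq in GRCm38.p6, and were found for 9 members. Capitals mark a match. Ciart (chr3:95882179-95882478, minus strand) held 3 E-boxes, Tef (chr15:81811164-81811463, plus strand) 1 in this and 1 in another window, Per3 (chr4:151044616-151044915, minus strand) 2 D-boxes and Arntl (chr7:113207261-113207560, plus strand) 1 ROR element.
Ciart: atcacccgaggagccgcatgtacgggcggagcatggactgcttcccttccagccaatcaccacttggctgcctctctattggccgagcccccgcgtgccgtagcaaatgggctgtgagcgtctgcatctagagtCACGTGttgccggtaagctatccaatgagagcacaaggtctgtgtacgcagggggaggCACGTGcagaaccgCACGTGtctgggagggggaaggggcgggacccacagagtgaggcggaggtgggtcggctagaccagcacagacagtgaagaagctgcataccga
Tef: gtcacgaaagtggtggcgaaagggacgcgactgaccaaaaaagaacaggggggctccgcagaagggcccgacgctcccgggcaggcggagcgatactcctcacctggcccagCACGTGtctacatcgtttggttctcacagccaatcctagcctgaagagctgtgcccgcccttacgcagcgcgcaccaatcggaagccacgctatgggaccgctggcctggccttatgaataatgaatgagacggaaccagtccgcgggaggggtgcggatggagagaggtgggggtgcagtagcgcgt
Per3: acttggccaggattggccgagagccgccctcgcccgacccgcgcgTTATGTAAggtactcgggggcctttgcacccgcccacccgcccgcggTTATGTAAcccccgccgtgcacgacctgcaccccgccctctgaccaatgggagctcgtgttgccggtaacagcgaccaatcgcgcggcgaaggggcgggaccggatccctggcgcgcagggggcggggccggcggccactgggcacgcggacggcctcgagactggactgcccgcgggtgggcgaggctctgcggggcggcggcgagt
Arntl: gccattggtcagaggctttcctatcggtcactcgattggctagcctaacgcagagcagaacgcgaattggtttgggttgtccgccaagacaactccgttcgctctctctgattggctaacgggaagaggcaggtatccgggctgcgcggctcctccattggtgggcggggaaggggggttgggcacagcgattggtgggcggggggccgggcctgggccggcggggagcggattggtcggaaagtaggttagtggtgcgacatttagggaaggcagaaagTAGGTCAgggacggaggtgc
The E-box was found in 3 of the 7 windows of Dbp-phase genes (Ciart and Tef) and in none of the 6 windows of Arntl-phase genes. It was found in 7.15% of the 32851 promoter windows searched. The variant E-box was found in 1 of those 7 (Nr1d1), against 4.68% of all windows, and the D-box in 1 (Per3), against 1.06%. The ROR element was found in 1 of those 6 (Arntl), against 6.45%. The Nr1d2, Dbp, Npas2 and Clock windows held none of these letters. A match is a description and not a binding site.

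The FPKM sum ran from 502238 to 1802047 over the libraries, and haemoglobin genes held 1.03% to 74.1% of it, with at least 68.9% in the BAPN and TPA libraries. No counts were given, so the depth behind a value is unknown and no counting interval could be computed. Replicates of a group correlated at 0.794 to 0.967 over tested genes, lowest in T-5224. Some libraries matched another group better than their own replicate: normal replicate 1 correlated at 0.916 and 0.917 with TPA and 0.852 with normal replicate 2, and T-5224 replicate 1 at 0.94 with coQ10, 0.917 with normal replicate 2 and 0.794 with its pair. Normal replicate 2 stood at 0.934 with coQ10. Markers of the aortic wall were present throughout: all 6 contractile smooth muscle markers and all 5 endothelial markers were listed in each library. Airway epithelium markers were also high in normal replicate 1, both TPA libraries and T-5224 replicate 2, with a mean log2(FPKM + 1) of 7.93 to 10.52, against 1.63 to 2.56 in the other 5 libraries, and of these 5 markers Scgb3a2 and Foxj1 were at 0 in coQ10.

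Nr1d1 (chr11:98767932-98775377) and Nr1d2 (chr14:18204056-18239106) encode the REV-ERB repressors of Arntl, with gene spans here and below from RefSeq in GRCm38.p6. Nr1d1 was at 50.47 and 35.31 FPKM in the normal libraries, 14.61 and 13.19 under BAPN, 19.10 and 24.80 under TPA, 45.58 and 63.08 under T-5224 and 120.47 in coQ10. Both BAPN libraries lay below every other library, and the coQ10 library stood highest. Nr1d2 was at 32.52 and 31.73 in normal, 6.55 and 7.35 under BAPN, 18.30 and 16.23 under TPA, 26.69 and 15.76 under T-5224 and 24.32 in coQ10. BAPN was again lowest, but here the normal libraries were the highest and coQ10 was below them. The last part of Nr1d1 overlaps the opposite-strand gene Thra (chr11:98767932-98769006), and without stated strand information reads of the overlap cannot be assigned.

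Dbp (chr7:45705100-45710203) and Tef (chr15:81802673-81826863) encode the D-box activators. Dbp was at 65.31 and 25.73 FPKM in normal, 5.12 and 4.02 under BAPN, 32.39 and 34.99 under TPA, 178.48 and 14.57 under T-5224 and 107.01 in coQ10. The T-5224 libraries bracketed all others except BAPN: replicate 1 was the highest of the 9 and replicate 2 the lowest outside BAPN. Dbp shares its end with the opposite-strand gene Sphk2, with the same uncertainty as for Nr1d1. Tef was at 73.79 and 85.87 in normal, 12.53 and 12.77 under BAPN, 39.56 and 37.01 under TPA, 58.89 and 43.84 under T-5224 and 70.62 in coQ10. Unlike Dbp, Tef kept the T-5224 pair close together, between TPA and normal.

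Ciart (chr3:95878500-95882257), a repressor of the BMAL1 complex, was at 7.66 and 5.25 FPKM in normal, 0.17 and 1.80 under BAPN, 1.71 and 2.13 under TPA, 5.67 and 2.86 under T-5224 and 43.73 in coQ10. BAPN and TPA overlapped, and the coQ10 library was far above the rest. An antisense transcript annotated over Ciart was not listed in any library.

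Per2 (chr1:91415977-91459351) was at 43.43 and 74.61 FPKM in normal, 2.96 and 2.68 under BAPN, 21.60 and 20.45 under TPA, 44.65 and 3.37 under T-5224 and 23.07 in coQ10. Per3 (chr4:150997018-151044707) was at 17.10 and 9.54 in normal, 1.39 and 1.05 under BAPN, 10.95 and 10.52 under TPA, 20.87 and 1.34 under T-5224 and 9.26 in coQ10. Both period genes put T-5224 replicate 1 among the normal libraries or above them. They put T-5224 replicate 2 just above BAPN for Per2 and inside the BAPN range for Per3. Per3 lies within the span of Camta1 on the same strand, so reads shared with that gene could be counted for either. Neither period gene had the high coQ10 level seen for Nr1d1, Dbp and Ciart.

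Arntl (chr7:113178471-113314126) is the partner of Clock and Npas2 and the target of the REV-ERB proteins. It was at 3.96 and 2.50 FPKM in normal, 10.43 and 6.51 under BAPN, 3.19 and 3.95 under TPA, 0.76 and 14.19 under T-5224 and 6.05 in coQ10. The lowest and the highest of the 9 values were thus the 2 T-5224 libraries, and both BAPN libraries were above normal, TPA and coQ10. Npas2 (chr1:39193702-39363240), which can stand in for Clock, stayed between 1.07 and 2.95, with a median of 1.53, and its BAPN values (2.46 and 1.32) spanned both normal values (1.69 and 1.40). In the T-5224 pair Npas2 was at 2.61 and 1.13, opposite in direction to Arntl. Clock (chr5:76209868-76305603), whose mRNA cycles weakly in most mouse tissues, stayed between 3.75 and 7.91 with a median of 4.40, and was highest in the normal libraries (7.19 and 7.91). From lowest to highest library, Arntl thus spanned 18.7-fold, Npas2 2.76-fold and Clock 2.11-fold, against 44.4-fold for Dbp, 27.8-fold for Per2, 19.9-fold for Per3, 9.13-fold for Nr1d1, 6.85-fold for Tef and 4.97-fold for Nr1d2. The fold of Ciart was not taken, because its lowest value, 0.17 FPKM, has an unknown count behind it.

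**Figure D1:**
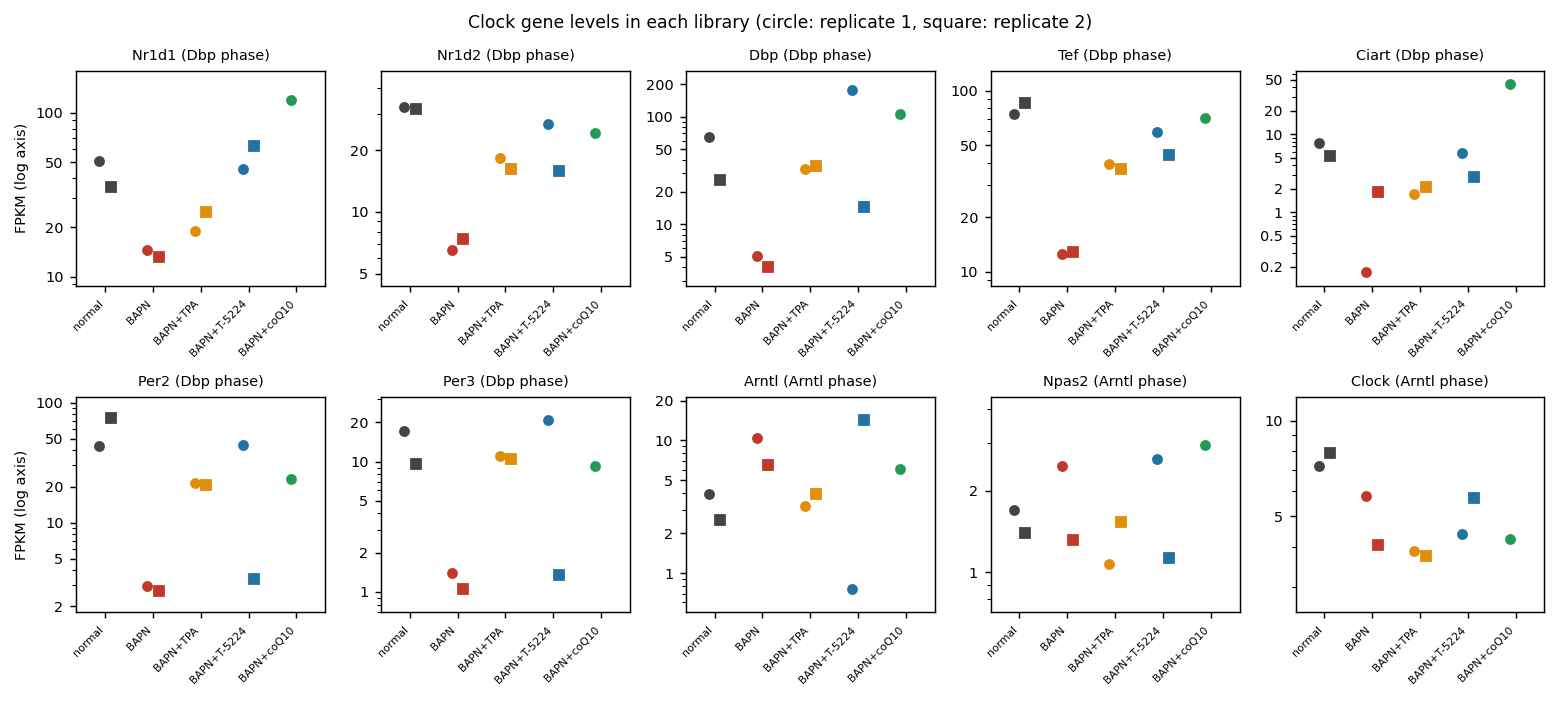
FPKM of each clock gene (log axis) in the 9 libraries, by group, with 1 symbol per library (circle, replicate 1; square, replicate 2). The 7 Dbp-phase genes each have their lowest value in a BAPN library, Dbp, Per2, Per3 and Arntl split the T-5224 pair, and coQ10 is highest for Nr1d1 and Ciart.

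To read both arms together, the mean log2(FPKM + 1) of the 3 Arntl-phase genes was subtracted from that of the 7 Dbp-phase genes in each library. This phase score is taken within a library, so a scale factor common to all its genes largely cancels. It was 2.86 and 2.74 in normal, -0.30 and 0.33 under BAPN, 2.27 and 2.15 under TPA, 3.50 and 0.96 under T-5224 and 3.02 in coQ10. The group means were 3.02 for the coQ10 library, 2.80 ± 0.09 for normal, 2.23 ± 1.80 for T-5224, 2.21 ± 0.09 for TPA and 0.02 ± 0.45 for BAPN (SD, n = 2 libraries a group except coQ10). BAPN lay below every other library, and TPA below normal and coQ10, without overlap. T-5224 could not be placed, since its libraries lay on both sides of normal and TPA. CoQ10 lay above both normal libraries, but has no replicate to judge that gap by.

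**Figure D2:**
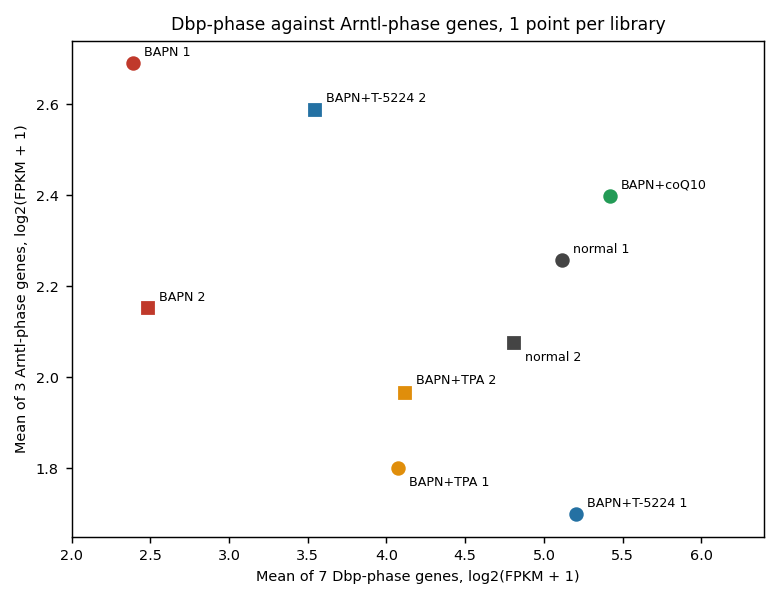
Mean log2(FPKM + 1) of the 7 Dbp-phase genes (x axis) against that of the 3 Arntl-phase genes (y axis), with 1 point per library. Replicates of normal and of TPA lie close together, BAPN lies at the left (2.39 and 2.49), and T-5224 replicates 1 and 2 lie at 5.20 and 3.55 on the x axis and at 1.70 and 2.59 on the y axis.

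Ratios of FPKM between opposite-phase genes, also taken within a library, gave a wider range. Dbp exceeded Arntl 16.5-fold and 10.3-fold in normal, 10.2-fold and 8.86-fold in TPA, 17.7-fold in coQ10 and 235-fold in T-5224 replicate 1. The ratio was 1.03 in T-5224 replicate 2, and in BAPN it was 0.491 and 0.618, so that only there was Arntl the higher of the pair. For Per2 over Arntl the ratio was 11.0 and 29.8 in normal, 6.77 and 5.18 under TPA, 3.81 in coQ10, 58.8 in T-5224 replicate 1, 0.238 in T-5224 replicate 2, and 0.284 and 0.412 under BAPN. By this second ratio T-5224 replicate 2 was below both BAPN libraries.

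The Dbp-phase genes did not keep 1 ratio to each other. Nr1d1 exceeded Per2 4.94-fold and 4.92-fold in BAPN, 5.22-fold in coQ10 and 18.7-fold in T-5224 replicate 2. In the other 5 libraries the ratio was between 0.473 (normal replicate 2) and 1.21 (TPA replicate 2). The coQ10 library and the BAPN libraries therefore shared a high Nr1d1 to Per2 ratio while standing far apart in phase score. Ciart exceeded Per3 4.72-fold in coQ10, 2.13-fold in T-5224 replicate 2 and 1.71-fold in BAPN replicate 2, and was below Per3 in the other 6 libraries. In mouse tissues Nr1d1 mRNA peaks before Per2 mRNA, so such ratios depend on the hour of sampling as well as on level.

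**Figure D3:**
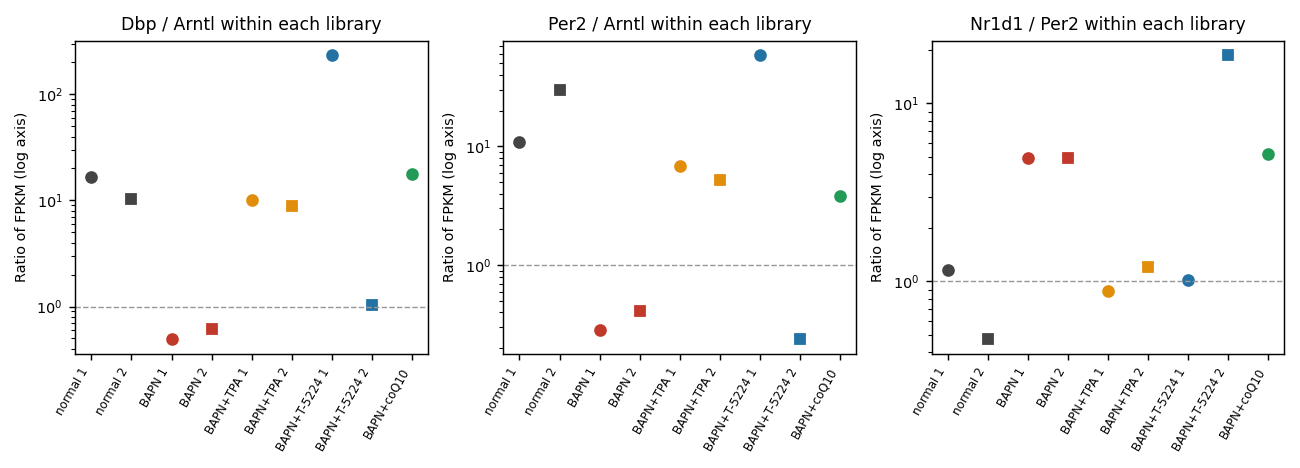
Ratio of FPKM within each library (log axis) for Dbp over Arntl, Per2 over Arntl and Nr1d1 over Per2, with the dashed line at a ratio of 1. T-5224 replicates 1 and 2 lie at 235 and 1.03 for Dbp over Arntl, and BAPN, coQ10 and T-5224 replicate 2 lie at 4.92 or above for Nr1d1 over Per2.

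The T-5224 pair differed more in these genes than any other pair of replicates. Dbp was 12.2-fold, Per2 13.2-fold and Per3 15.6-fold higher in replicate 1 than in replicate 2, and Arntl was 18.7-fold higher in replicate 2. These 4 of the 10 members differed by at least 2 on the log2(FPKM + 1) scale, which is 4-fold, whereas 5.72% of all 12997 tested genes were higher by that much in replicate 1 and 6.17% in replicate 2. Within the normal, BAPN and TPA pairs the largest gaps among members were 1.31 (Dbp), 1.26 (Ciart) and 0.36 (Nr1d1). The share of all tested genes with a gap of at least 2 was not taken in those pairs. Over tested genes they correlated at 0.852, 0.944 and 0.967, against 0.794 in T-5224. The other 6 members stayed within 0.79 in the T-5224 pair, Nr1d1 and Tef among them. The replicates also differ in the weeks named in their titles, in airway markers (mean 1.63 and 7.93) and in contractile markers (10.04 and 7.33), and the part of these in the gap was not tested. The normal replicates also differed in airway (10.52 and 2.56), cardiac (10.67 and 2.34) and contractile markers (9.25 and 10.78), with phase scores of 2.86 and 2.74. The part of each in the scores was not tested.

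BAPN against normal asked what BAPN does to the aorta. Each of the 7 Dbp-phase genes was lower in both BAPN libraries than in both normal libraries, as were 51.1% of all tested genes, and Arntl was higher in both, as were 15% of all tested genes. On the log2(FPKM + 1) scale the differences were -3.92 for Per2 (SE 0.972, n = 2 libraries a group), -2.93 for Dbp (SE 1.05), -2.64 for Per3 (SE 0.936), -2.56 for Tef (SE 0.276), -2.06 for Nr1d2 (SE 0.314), -2.02 for Ciart (SE 0.504) and -1.54 for Nr1d1 (SE 0.321). Arntl differed by 1.15 (SE 0.911), Npas2 by 0.16 (SE 0.423) and Clock by -0.54 (SE 0.296). These SE include the spread of the TPA and T-5224 pairs. With only the normal and BAPN libraries fitted, the SE was 0.35 for Per2, 0.51 for Dbp, 0.38 for Per3 and 0.37 for Arntl. It was also smaller for the other members except Ciart, at 0.54. The median difference was -2.04 over the 10 members and -0.51 over all tested genes, and median-of-ratios scaling brought the latter to -0.01, with no member changing sign, Nr1d1 at -0.98, Npas2 at 0.52 and Clock at -0.04. Npas2 turned to -0.13 without BAPN replicate 1 and Clock moved to -0.33 without BAPN replicate 2.

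Both groups also differed in tissue content. The 6 contractile smooth muscle markers summed to 6301 and 18589 FPKM in normal and 1950 and 722.6 under BAPN, and the 5 red blood cell markers to 7236 and 5200 against 1127600 and 1337463. The 5 neutrophil markers summed to 31.84 and 25.35 FPKM in normal and 1885 and 1074 under BAPN. None of these markers was at 0 in any library. Lymphocyte means were also higher (2.5 and 4.74, against 2.0 and 0.23 in normal) and adipocyte means lower (5.69 and 5.31, against 9.49 and 6.07), and the part of these cells in the clock gene levels was not tested. Over the 9 libraries the contractile mean was lowest in BAPN (6.9 and 5.75) and T-5224 replicate 2 (7.33), the 3 libraries with the lowest phase score, and its part in the score was not tested. The TPA libraries, with red blood cell sums of 1018173 and 1017289 FPKM close to those of BAPN, had scores of 2.27 and 2.15. Their airway means were 10.01 and 9.02, against 2.13 and 2.1 in BAPN. The part of red blood cells or airway tissue in the scores was not tested. In bulk tissue, fewer cells of a type and less RNA per cell cannot be told apart.

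**Figure D4:**
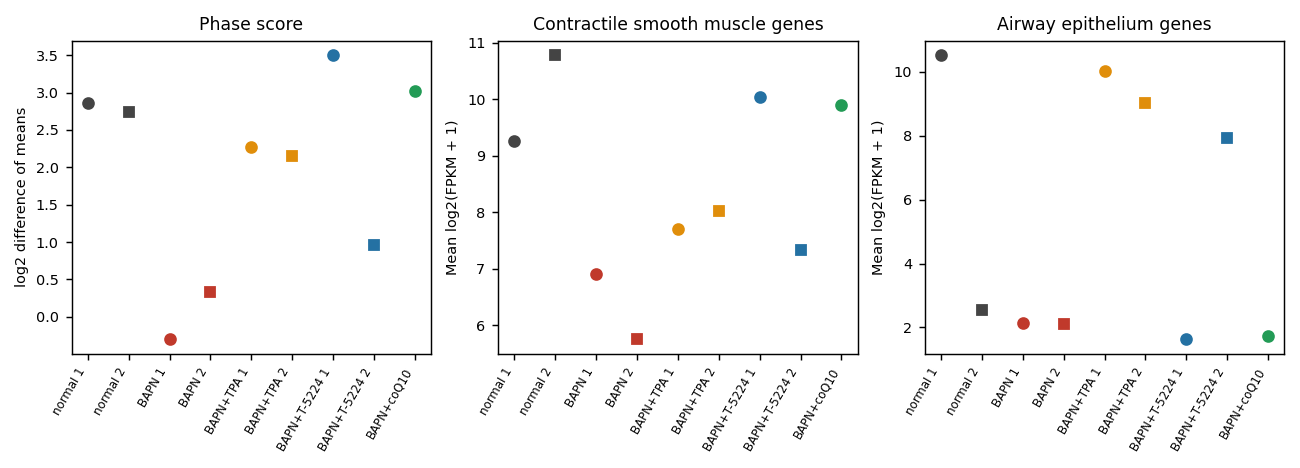
Phase score, mean log2(FPKM + 1) of 6 contractile smooth muscle markers and mean log2(FPKM + 1) of 5 airway epithelium markers in each library. The 3 libraries with the lowest phase score (BAPN, and T-5224 replicate 2) also have the lowest contractile means, while airway markers are high in normal replicate 1, TPA and T-5224 replicate 2.

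TPA plus BAPN was compared with BAPN alone. These groups also differed in tissue content. Airway means were 10.01 and 9.02 under TPA, against 2.13 and 2.1 in BAPN. Squamous epithelium means were 4.69 and 5.47 against 0.24 and 0.12, and contractile means 7.7 and 8.02 against 6.9 and 5.75. The part of these tissues in the differences was not tested. Of the 7 Dbp-phase genes, 6 were higher in both TPA libraries than in both BAPN libraries, as were 41.4% of all tested genes, and Ciart was the exception. Dbp differed by 2.64 (SE 1.05, log2, n = 2 a group), Per2 by 2.53 (SE 0.972), Per3 by 2.41 (SE 0.936), Tef by 1.52 (SE 0.276), Nr1d2 by 1.20 (SE 0.314), Ciart by 0.69 (SE 0.504) and Nr1d1 by 0.61 (SE 0.321). The Ciart value was 0.06 without BAPN replicate 1 and 1.32 without BAPN replicate 2. Arntl and Clock were lower in both TPA libraries (-1.02 and -0.28), as were 21.2% of tested genes, and Npas2 differed by -0.31. Without BAPN replicate 1 the Clock and Npas2 values were -0.07 and -0.02. This contrast and those of T-5224 and coQ10 against BAPN share the BAPN libraries with the first. Low Dbp-phase values in BAPN therefore enter all of them, but not TPA against T-5224.

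T-5224 plus BAPN was compared with BAPN alone in the same way. Nr1d1, Nr1d2, Dbp, Tef, Ciart and Per2 were higher in both T-5224 libraries than in both BAPN libraries, as were 34.2% of all tested genes, and no member was lower in both, against 12.8%. Nr1d1 differed by 1.88 (SE 0.321, n = 2 a group), Tef by 1.92 (SE 0.276) and Nr1d2 by 1.44 (SE 0.314). With haemoglobin left out of the sum these were 1.34, 1.39 and 0.94, and with median-of-ratios scaling 1.53, 1.58 and 1.11. For Dbp the difference was 3.25, but 1.49 without T-5224 replicate 1 and 5.02 without replicate 2. Per2 gave 1.89, with 0.20 and 3.58 on leaving out the same libraries, and Per3 gave 1.69, with 0.08 and 3.30. For Arntl the value was -0.84, turning to 0.71 without replicate 1 and to -2.40 without replicate 2. Npas2 differed by -0.03 and Clock by 0.04, the latter turning to -0.26 with median-of-ratios scaling, and each changed sign on leaving out 1 library. Ciart differed by 1.49, or 0.86 without BAPN replicate 1. The phase score difference of 2.21 likewise ran from 0.94 to 3.49.

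CoQ10 plus BAPN against BAPN rests on 1 coQ10 library, which the fit assumes to vary like the other groups. All 7 Dbp-phase genes and Npas2 were above both BAPN libraries in it, as were 59.6% of all tested genes, and Arntl was below both, as were 24.1%. Ciart differed by 4.63 (SE 0.617), Dbp by 4.28 (SE 1.29), Nr1d1 by 3.03 (SE 0.394), Per2 by 2.66 (SE 1.19), Tef by 2.39 (SE 0.338), Per3 by 2.21 (SE 1.15) and Nr1d2 by 1.67 (SE 0.384). Over the alternatives Nr1d1 ran from 2.56 to 3.11, Tef from 1.93 to 2.47 and Nr1d2 from 1.23 to 1.79. Arntl differed by -0.39, Npas2 by 0.48 and Clock by -0.15. Without BAPN replicate 1 these became -0.09, 0.77 and 0.06, and with median-of-ratios scaling -0.82, 0.14 and -0.56.

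TPA against T-5224, the AP-1 activator against its inhibitor, gave a phase score difference of -0.02, which became 1.25 without T-5224 replicate 1 and -1.29 without replicate 2. Nr1d1, Tef, Ciart and Clock were lower in both TPA libraries than in both T-5224 libraries, as were 28% of all tested genes, though Tef and Clock, like Nr1d2, Dbp, Arntl and Npas2, changed sign with haemoglobin left out of the sum. No member was higher in both, against 16.5%. Nr1d1 differed by -1.26 (SE 0.321, n = 2 a group), or -0.59 with haemoglobin left out. Per2 and Per3 differed by 0.64 and 0.71, turning to -1.05 and -0.90 without T-5224 replicate 2. Squamous epithelium means were 4.69 and 5.47 under TPA, against 0.11 and 0.25 under T-5224, and airway means 10.01 and 9.02 against 1.63 and 7.93. Red blood cell markers summed to 1018173 and 1017289 FPKM, against 377888 and 122477. The part of these tissues in the differences was not tested.

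A further 22 genes of the clock and its outputs, outside the 10, were followed as a list. Of these, 20 were tested, and Rorb and Fbxl21, at no more than 0.95 FPKM in any library, were not. In BAPN against normal, 2 of the 20 passed the limma test at an adjusted p under 0.05, both as lower, against 3.26% of all tested genes (2.36% lower, 0.9% higher). An unadjusted p under 0.05 was found for 10 of the 20, against 32.4% of all tested genes. Without overlap between the groups, 16 were lower and Nfil3, Bhlhe40 and Noct higher, against 51.1% and 15% of all tested genes. Hlf, the third activator of the DBP and TEF family, was at 15.31 and 11.18 FPKM in normal and 1.25 and 1.55 under BAPN. It fell by 2.56 on the log2 scale (SE 0.394, limma adjusted p = 0.0458, n = 2 a group), with an adjusted p from 0.00677 to 0.246 over the alternatives. Por, the reductase that supplies electrons to cytochromes P450, was at 201.4 and 111.86 in normal and 38.51 and 27.79 under BAPN. It fell by 2.16 (SE 0.371, limma adjusted p = 0.0474), with an adjusted p from 0.0136 to 0.246. Both calls were lost on leaving out any 1 of the normal, BAPN or TPA libraries. The list's median was -0.68, against -0.51 over all tested genes.

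The other repressors of the loop did not pass, though Cry1, Cry2 and Bhlhe40 did with a filter at 5 FPKM. Cry1 was at 13.06 and 19.14 FPKM in normal and 4.92 and 4.85 in BAPN (log2 difference -1.52, limma adjusted p = 0.055), and Cry2 at 19.87 and 22.83 against 7.66 and 7.05 (-1.42, adjusted p = 0.0508). Per1, the period gene most responsive to acute stimuli, was at 40.48 and 38.19 against 20.94 and 29.94 (-0.63, limma adjusted p = 0.288). Wee1, a kinase of the cell cycle driven by an E-box in mouse liver, was at 14.44 and 16.96 against 2.97 and 2.56 (-2.15, limma adjusted p = 0.0709). The helix-loop-helix repressors of E-boxes pointed opposite ways, with Bhlhe40 at 27.11 and 11.70 in normal and 66.54 and 62.05 in BAPN (1.79, limma adjusted p = 0.0552), and Bhlhe41 at 5.73 and 5.90 against 1.55 and 1.54 (-1.42, adjusted p = 0.0798). Noct, a phosphatase of nicotinamide dinucleotides also called nocturnin, was at 19.95 and 7.04 in normal and 53.73 and 40.88 in BAPN (1.88, limma adjusted p = 0.0633). Nfil3, the D-box repressor that opposes DBP, was at 13.34 and 22.84 against 37.07 and 27.35 (0.83, limma adjusted p = 0.539). After median-of-ratios scaling Bhlhe40 and Noct passed as higher and Hlf as lower, and Por no longer passed. The kinases and ubiquitin ligase parts that set clock protein turnover (Csnk1d, Csnk1e, Btrc and Gsk3b) differed by -0.31 to -0.69, beside -0.51 over all genes.

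**Figure D5:**
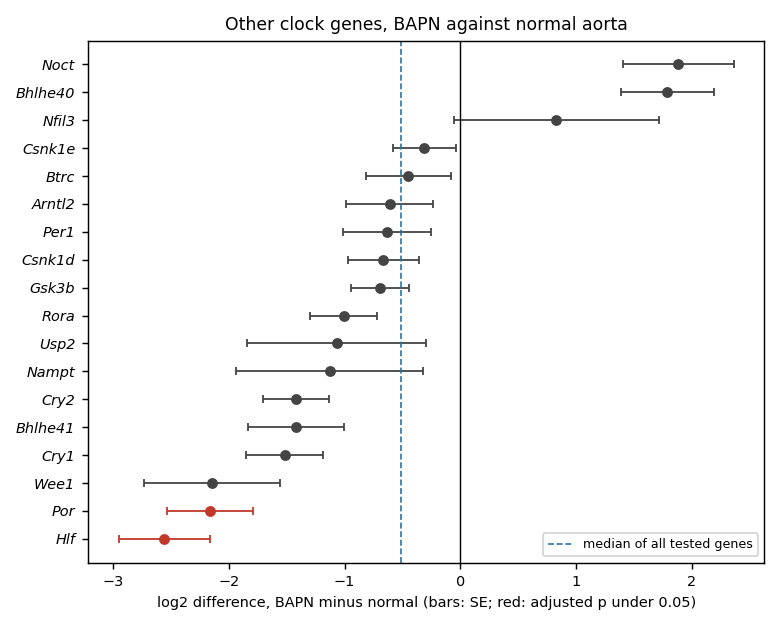
Log2 difference between BAPN and normal aorta for tested clock genes outside the 10 members (points, with SE as bars), in red where the adjusted p is under 0.05, with the median of all tested genes as a dashed line. Hlf and Por lie lowest, and Noct, Bhlhe40 and Nfil3 lie above 0.

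In the other comparisons none of the 20 passed in limma, as was so for nearly all tested genes. For TPA against BAPN 0.0385% of these passed (0.0231% higher, 0.0154% lower), for T-5224 against BAPN 0.0308%, and for coQ10 against BAPN and TPA against T-5224 0.0154% each. An unadjusted p under 0.05 was found for 3 of the 20 in TPA against BAPN, against 10.2% of all tested genes, and for 8 in T-5224 against BAPN, against 18.3%. It was found for 7 in coQ10 against BAPN, against 19.8%, and for 1 in TPA against T-5224, against 10.9%. The list's medians were 0.37, 0.53, 0.76 and -0.003 in that order, beside 0.18, 0.35, 0.39 and -0.09 over all tested genes. Noct was at 6.21 and 9.25 FPKM in TPA, 6.17 and 6.34 under T-5224 and 7.67 in coQ10, all below both BAPN libraries (log2 differences of -2.48, -2.72 and -2.47, limma adjusted p = 0.306, 0.148 and 0.185). Hlf was at 6.49 and 5.42 under TPA, 8.76 and 3.91 under T-5224 and 7.37 in coQ10, all above BAPN (1.53, 1.53 and 1.81, limma adjusted p = 0.355, 0.163 and 0.188). The coQ10 library had the highest Per1 of all, at 102.54, and the highest Bhlhe41, at 10.39. Their differences from BAPN were 1.99 and 2.16, each with a limma adjusted p = 0.185. Within the T-5224 pair, Wee1 went with the period genes (9.22 and 1.82 FPKM) and Nfil3 with Arntl (13.07 and 114.06). Hlf, Bhlhe41 (7.74 and 2.92) and Cry1 (11.77 and 7.85) were also higher in replicate 1. Per1 (14.23 and 28.67), Cry2 (11.11 and 16.26), Usp2 (3.56 and 19.96) and Nampt (10.47 and 76.15) were higher in replicate 2, opposite to Per2 and Per3.

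Across all tested genes, the levels most like the phase score were sought by Pearson correlation over the 9 libraries, after subtracting each library's median. The libraries share treatments, tissue content and 1 scaling, so the values are descriptive. Among genes that are not members, Angptl2, a secreted angiopoietin-like protein, came closest (0.976), at 78.87 and 69.57 FPKM in normal, 6.46 and 7.26 under BAPN, 33.70 and 35.93 under TPA, 67.06 and 10.24 under T-5224 and 72.64 in coQ10. Cdh3 (0.972), Zcchc8 (0.967), Kat6b (0.963) and Tpp1 (0.961) followed. At the opposite end were Camk2n2 (-0.985), Crem (-0.975), the eosinophil chemoattractant Ccl11 (-0.975), Stk32c (-0.973) and Uap1 (-0.972). Crem, a modulator of cAMP-responsive transcription, was at 5.51 and 6.21 in normal, 24.36 and 19.09 under BAPN, 6.23 and 7.69 under TPA, 5.16 and 13.13 under T-5224 and 5.79 in coQ10. Of the clock genes outside the members, Hlf stood at 0.931, Bhlhe41 at 0.828 and Wee1 at 0.808, Noct at -0.802 and Bhlhe40 at -0.708, and Per1 at 0.06. The Arntl-phase genes, which are part of the score, stood at -0.85 (Arntl), -0.505 (Clock) and -0.217 (Npas2).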

How the data were processed

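Total RNA of mouse aorta was extracted with Trizol and made into TruSeq RNA libraries, per the labels' protocols. Each library has 1 table of FPKM by symbol, as deposited by the authors to 2 decimals and without unexpressed genes. The build is mm10 in the submitters' processing notes. No aligner, counter, annotation or strand setting is given in the sources used here. Unlisted genes were set to 0. Depth is unknown, and the spacing of low values gave no clear relative depth.

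Values were taken as log2(FPKM + 1), which understates the change of low genes. The 12997 genes with a mean of at least 1 FPKM were fitted in limma 3.58.1 (R 4.3.3) with 5 groups over 9 libraries (4 residual degrees of freedom), a variance trend, two-sided tests and Benjamini-Hochberg adjustment over all tested genes per comparison (5 comparisons, threshold 0.05). The fit was tested on simulated data. The design fixed the naming of all members, all listed genes of the other clock list, and the 5 highest and 5 lowest correlations with the phase score, without clone-like symbols; some listed genes are counted but not reported here by name. The members, lists and tests were chosen with earlier results of these data known. Marker lists of fibroblasts, skeletal and cardiac muscle, squamous epithelium, adipocytes, neutrophils, macrophages, lymphocytes and glucocorticoid response were computed as well. Tables were read with python 3.11.15 and pandas 2.3.3. Alternatives covered the pseudocount, filter, scaling, libraries fitted, each library left out and a replicate block.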

Additional observations from a re-analysis of the deposited data

How the results depend on the processing

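The phase score of BAPN minus normal, -2.78, became -3.22 with a pseudocount of 0.1 and -4.08 with Dbp against Arntl alone, and ran from -3.10 to -2.46 on leaving out 1 library. TPA minus BAPN, 2.20, became 2.64 and 3.67 under the same choices. With Dbp against Arntl alone T-5224 minus BAPN, 2.21, became 4.10 and coQ10 minus BAPN, 3.01, became 4.68. Leaving out 1 library was done for the phase score only. There TPA minus BAPN ran from 1.88 to 2.51 and T-5224 minus BAPN from 0.94 to 3.49. CoQ10 minus BAPN ran from 2.69 to 3.32, and TPA minus T-5224 from -1.29 to 1.25.

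The count of other clock genes passing in BAPN minus normal, 2, was 1 with a pseudocount of 0.1, 5 with a filter at 5 FPKM, 0 without a filter, with haemoglobin left out, with only the groups compared or with the replicate block, 10 without both normal replicate 1 and T-5224 replicate 2, and 0 to 11 leaving out 1 library (11 without either T-5224 library). For TPA minus BAPN it was 0, but 2 with only the groups compared and 3 without those 2 libraries. That last choice gave 7 for T-5224 minus BAPN, 8 for coQ10 minus BAPN and 1 for TPA minus T-5224, each 0 otherwise, except for 0 to 1 leaving out 1 library in the last 2.

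All genes passing in BAPN minus normal numbered 424, and 152 with a pseudocount of 0.1, 53 without a filter, 718 with a filter at 5 FPKM, 226 with median-of-ratios scaling, 21 with haemoglobin left out, 37 with only the groups compared, 8 with the replicate block, 4032 without both libraries named above, and 0 to 3670 leaving out 1 library. For TPA minus BAPN (5) the count was 0, 9, 0, 5, 2, 972, 2 and 1023 in the same order, and 0 to 9 leaving out 1 library. For T-5224 minus BAPN (4) it was 2, 2, 2, 35, 2, 0, 0 and 2245, and 0 to 85. For TPA minus T-5224 (2) it was 0, 8, 0, 3, 2, 0, 2 and 584, and 0 to 666. CoQ10 minus BAPN (2), with no number for a block, gave 1, 7, 2, 10, 2, 0 and 2967, and 0 to 104. The cause of these shifts was not tested, and fits without both libraries draw their spread from the BAPN and TPA pairs alone. Replicate numbers did not pair samples: deviations of same-numbered libraries correlated at -0.437 to 0.176 between groups. Unknown depth limits values near 0, such as Ciart in BAPN.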

Other observations

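Usp2 and Nampt, a pair of clock-linked genes, correlated with the phase score at -0.142 and -0.132 over the 9 libraries. Usp2, a deubiquitinase, was at 22.54 and 7.66 FPKM in normal, 7.38 and 4.54 under BAPN, 12.87 and 15.81 under TPA, 3.56 and 19.96 under T-5224 and 10.05 in coQ10. Its 4 highest libraries were normal replicate 1, both TPA libraries and T-5224 replicate 2. Those 4 also had the highest airway epithelium means (7.93 to 10.52, against at most 2.56 elsewhere), and the part of that tissue in these levels was not tested. Nampt, the enzyme that recycles nicotinamide into NAD, was at 42.11 and 25.24 in normal, 14.32 and 14.45 under BAPN, 25.69 and 25.80 under TPA, 10.47 and 76.15 under T-5224 and 31.95 in coQ10.

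Glucocorticoids can set peripheral clocks, and 5 glucocorticoid-responsive genes (Fkbp5, Tsc22d3, Zbtb16, Sgk1 and Klf9) were read as a list. Their mean log2(FPKM + 1) was 6.24 and 6.54 in normal, 4.55 and 4.55 under BAPN, 5.36 and 5.36 under TPA, 3.68 and 6.27 under T-5224 and 6.15 in coQ10. The lowest mean was in T-5224 replicate 1, the library with the highest phase score, while BAPN was low in both. Of the remaining marker lists, squamous epithelium had its highest means in TPA (4.69 and 5.47, at most 1.22 elsewhere), cardiac muscle was at 6.63 to 10.67 in the 4 libraries with airway markers and at most 2.55 elsewhere, and skeletal muscle was at 1.79 to 2.88 in normal replicate 2, T-5224 replicate 1 and coQ10 and at 7.77 to 10.48 in the others. Adipocyte means ran from 5.15 to 9.49, fibroblast from 5.76 to 7.41, neutrophil from 1.94 to 6.34, macrophage from 3.04 to 4.78 and lymphocyte from 0.23 to 4.74 over the 9 libraries.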
